A study of Culex quinquefasciatus with 7 samples.

Results

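A set of 93 genes of the southern house mosquito, Culex quinquefasciatus, was abundant and nearly steady in whole adult females from 2 to 72 h after eclosion, the moulting of the pupa into the winged adult. Its members were chosen by their measured values: the set held every gene whose deposited value was at least 100 FPKM in all 7 libraries and whose highest and lowest log2(FPKM + 1) lay less than 1 apart, that is, within about 2-fold. FPKM counts fragments per kilobase of gene model and relative to the mapped fragments of the library. The 93 genes were 0.458% of the 20305 genes in the table and 27.2% of the 342 genes with at least 100 FPKM in all libraries. The remaining 249 of those 342 genes are called the other abundant genes below.

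The libraries came from adult females at 2, 12, 24, 36, 48, 60 and 72 h after eclosion, reared with 12 h of light a day. Each was made from the whole bodies of 200 pooled females, with 1 library per time, so no value has a replicate error. The sources used here do not give the strain or the feeding of the animals. Because the values of all 7 libraries chose the genes, every level and difference of the set below is a description, and no test was made.

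After eclosion a female mosquito hardens its cuticle, remodels its tissues and builds up the fat body and ovaries that later make yolk once blood is taken. In many insects, juvenile hormone directs this previtellogenic phase. Against such a changing background, genes with steady transcripts are often those for basic work of every cell, such as protein synthesis, energy supply and the cytoskeleton, and they are sought as references for measuring other genes. The files name no identifier, and when all 20305 were looked up among 18458 RefSeq genes, 0 were found. The roles of these 93 genes are therefore not stated, and genes are given by identifier.

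The whole-series facts that touch the set concern scale. The summed FPKM per library lay between 428805 and 496974. Fragments per library are unknown, but low values fall on steps of whole fragments. If no scaling between libraries was applied, which the sources do not say, these steps give relative depth. They then put the later 6 libraries at 0.741 (60 h) to 1.19 (72 h) of the 2 h library. Scaling by the median ratio, taken across the 2761 genes at 10 FPKM or more in all libraries, gave factors of 0.772 for 2 h and 1.15 for 72 h. A typical gene thus stood 0.54 (log2) higher at 72 h than at 2 h in the deposited values. Results that turn on this shift are given below both with the deposited values and after division by that ratio.

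In each library most of the steady genes ranked below the 100 most abundant genes. Their means over the 7 libraries ran from 120 to 2902 FPKM, with a median of 209.8 FPKM, against a median of 622 FPKM for the other abundant genes. By the rule, each of those other genes must reach at least 200 FPKM in some library, so part of this gap is built in. By mean, 43 of the 93 lay between 100 and 200 FPKM, 39 between 200 and 500 FPKM, 8 between 500 and 1000 FPKM and 3 above 1000 FPKM. The median rank of the set among all genes stayed between 316 and 329 in the 7 libraries, and between 3 and 7 of its genes were among the 100 most abundant at any time. Together the 93 genes held 6.67%, 6.92% and 7.06% of the summed FPKM in the libraries from 2 to 24 h, and 6.52%, 5.87%, 5.95% and 6.10% in those from 36 to 72 h. Their share was highest at 24 h and lower from 36 h on than in the first 3 libraries.

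The smaller a gene's level, the more often its range was narrow. Of genes whose lowest value was at least 500 FPKM, 11.5% of 78 had a range below 1, against 21.2% of 104 with a lowest value from 200 to 500 FPKM and 38.8% of 160 from 100 to 200 FPKM. Below the minimum of 100 FPKM the share was 41.8% of 237 genes from 50 to 100 FPKM, 46.9% of 850 from 20 to 50 FPKM and 47.2% of 1332 from 10 to 20 FPKM. When only the ranges were rescaled and the classes kept by deposited values, the order was the same. The shares were then 12.8%, 22.1%, 33.1%, 39.2%, 53.2% and 59.5% from the highest to the lowest class. Steady genes were thus a smaller part of the most abundant class than of any class below it, with the ranges under either scaling.

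**Figure D1:**
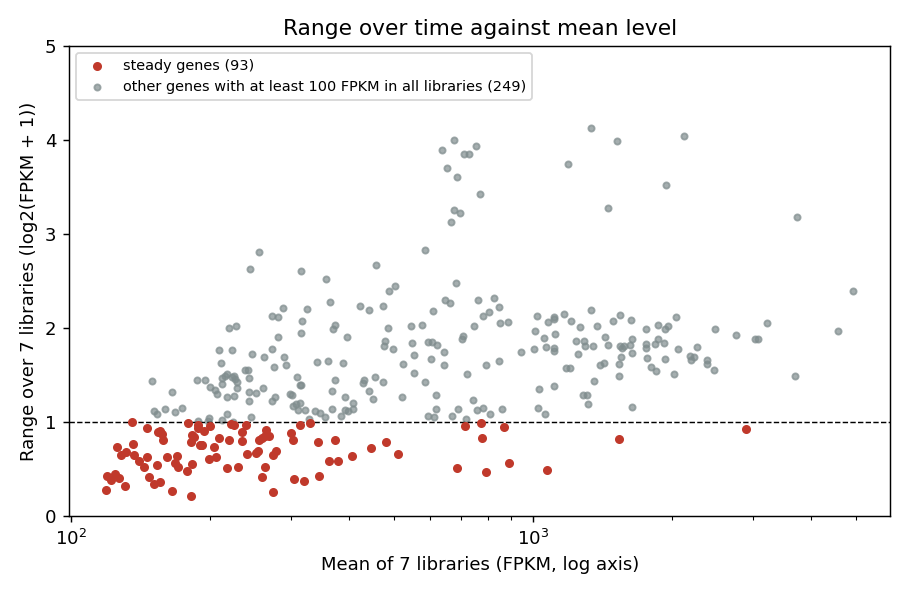
Mean FPKM of each gene over the 7 libraries (horizontal, log axis) against its range over time in log2(FPKM + 1) (vertical) for the 93 steady genes (red) and the other 249 genes with at least 100 FPKM in all libraries (grey). The dashed line marks the range of 1 that bounds the set, and 3 of the steady genes lie above 1000 FPKM.

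The limit of 1 crosses a continuous spread of ranges. Among the 342 abundant genes, 1 had a range below 0.25, 18 from 0.25 to 0.5, 31 from 0.5 to 0.75, 43 from 0.75 to 1, 90 from 1 to 1.5 and 89 from 1.5 to 2. Within the set the median range was 0.70 (quartiles 0.52 and 0.86), which is a 1.62-fold ratio of highest to lowest FPKM. Only 30 of the 93 genes stayed within 1.5-fold and 2 within 1.2-fold. The gene just inside the limit was CPIJ003259, with a range of 0.997, and the gene just outside was CPIJ008182, with 1.005. CPIJ008182 had 138, 178, 237, 243, 262, 234 and 278 FPKM from 2 to 72 h. At the other limit, CPIJ014559 was kept with a lowest value of 100.8 FPKM and CPIJ017679 was left out with a lowest value of 99.3 FPKM. Without the 2 h library 163 genes met the rule, and of the 70 that this added, 63 were lowest and 7 highest at 2 h. A gene added in this way is highest or lowest at 2 h by construction. The 2 h library also had the smallest median-ratio factor, 0.772, and the part of that scale in the split was not tested.

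The steadiest gene was CPIJ009705. From 2 to 72 h it had 181, 187, 167, 171, 186, 194 and 188 FPKM, a range of 0.22 and an SD over libraries of 0.079 (log2). The next was CPIJ010022, with 304, 254, 265, 267, 259, 277 and 289 FPKM in the same order and a range of 0.26. Its first and last libraries were its highest, and the 12 h library its lowest. After rescaling, the ranges of these genes were 0.60 and 0.74, because the 2 h library was then raised relative to the others.

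The most abundant gene of the set was CPIJ011571. From 2 to 72 h it had 2158, 2361, 3340, 2476, 2841, 3013 and 4120 FPKM. The 24 h and 72 h libraries were its highest, and the 72 h value was 0.93 (log2) above the 2 h value, close to the limit of the rule. CPIJ011420 followed with 1257, 1298, 1520, 1380, 1430, 2217 and 1646 FPKM. Its 60 h library stood apart from its neighbours in time, and the rest lay between 1257 and 1646 FPKM.

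The steepest slopes within the set ran in both directions. CPIJ000574 had 200.5, 251, 334, 349, 374, 398 and 399 FPKM from 2 to 72 h, a least-squares slope of 0.32 (log2 per 24 h). It was the 1 gene of the 93 that was higher in every successive library (1.08% of the set), where 2.06% of the 2761 genes with at least 10 FPKM in all libraries were; 0 were lower in every successive library, where 0.724% of the 2761 were. CPIJ014133 had 229, 215, 309, 326, 322, 378 and 422 FPKM, a slope of 0.31. Most of its increase lay between 12 and 24 h and after 48 h.

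CPIJ011691 had the steepest falling slope, -0.38 per 24 h. It had 1128, 1136 and 1158 FPKM at 2, 12 and 24 h, then 727, 693, 622 and 601 FPKM at 36, 48, 60 and 72 h. CPIJ000908 had 275, 301 and 304 FPKM in the first 3 libraries and 203, 182, 160 and 155 FPKM in the last 4, a slope of -0.37. Both were level up to 24 h and had their largest single step between 24 and 36 h. CPIJ012223, with a range of 0.994, also stepped down after 24 h. It had 875, 948 and 1032 FPKM in the first 3 libraries and 786, 621, 639 and 518 FPKM in the last 4. CPIJ003259 and CPIJ014559, at the limits of the rule, followed other courses. CPIJ003259 had 224 FPKM at 2 h and 112 to 138 FPKM afterwards. CPIJ014559 had 169 FPKM at 12 h, against 109 FPKM at 2 h, and ended at 100.8 FPKM.

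**Figure D2:**
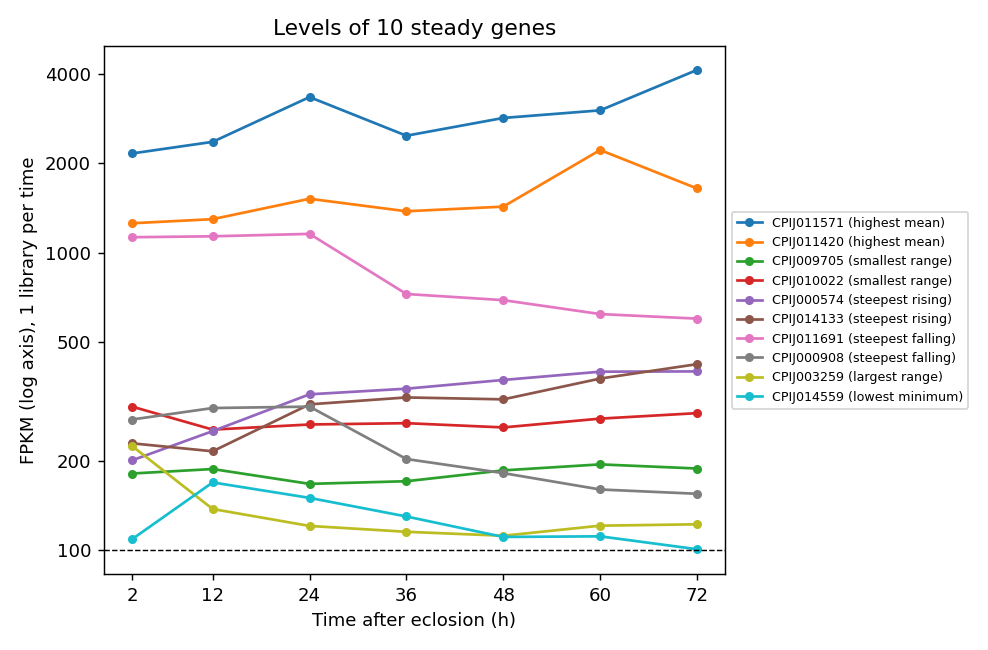
FPKM (vertical, log axis) at each time after eclosion (horizontal, h) for 10 genes of the set, 1 library per time: the most abundant, the narrowest in range, the steepest in slope and those at the limits of the rule. The dashed line is the minimum of 100 FPKM; CPIJ009705 stays between 167 and 194 FPKM while CPIJ011691 and CPIJ000908 step down after 24 h.

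Over all 93 genes, slopes lay on both sides of 0 in the deposited values. The median slope was -0.034 per 24 h (quartiles -0.16 and 0.091; lowest -0.38, highest 0.32), with 40 positive and 53 negative slopes. The other abundant genes had a median slope of 0.25 with quartiles of -0.48 and 0.60, and the 2761 genes with at least 10 FPKM in all libraries a median of 0.14. At 72 h 44 of the 93 genes (47.3%) were above their 2 h value and 49 below it, where 70.4% of the 2761 genes were above it. In ranks among all genes, 43 of the 93 stood higher at 72 h than at 2 h, 49 lower and 1 at the same rank. A library-wide scaling cannot move these ranks, but the genes were chosen as level in the deposited values. The balance of ranks is therefore no check on the scale. The median difference between 72 h and 2 h was -0.027 (log2) in the set, against 0.92 in the other abundant genes and 0.54 in the 2761.

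After rescaling by the median ratio, the same 93 genes had a median slope of -0.18 per 24 h, with 76 negative and 17 positive slopes. Then 16 of the 93 (17.2%) were above their 2 h value at 72 h, where 49.4% of the 2761 genes were. The median difference between 72 h and 2 h was -0.60. Relative to its own mean, the median gene of the set then stood at 0.39, 0.18, 0.073, -0.031, -0.18, -0.12 and -0.16 (log2) in order of time. The set was selected to be level in the deposited FPKM, so division by factors that are larger in later libraries lowers its later values by construction. The 92 genes that met the rule when it was applied again to the rescaled values had a median slope of -0.029, and 42 of them were above their 2 h value at 72 h. Fragments or spike-ins per animal were not analysed here, so which of these scales is nearer to transcripts per female was not tested. In whole bodies, fewer cells of a type and less RNA per cell cannot be told apart.

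**Figure D3:**
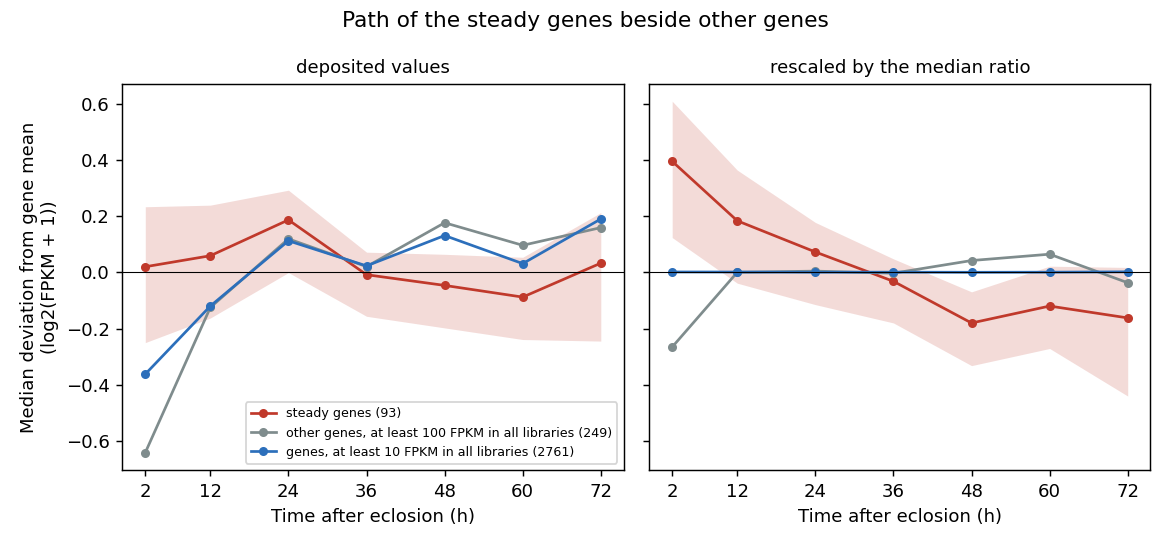
Median deviation of log2(FPKM + 1) from each gene's own mean (vertical) against time after eclosion (horizontal, h), for the 93 steady genes (red, with the quartiles shaded), the other 249 abundant genes (grey) and all 2761 genes with at least 10 FPKM in all libraries (blue), in the deposited values (left) and after rescaling by the median ratio (right). The red line is nearly level on the left and runs from 0.39 at 2 h to -0.16 at 72 h on the right, where the blue line is level by construction.

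Which genes met the rule depended on the scale more than how many did. After rescaling by the median ratio 92 genes met it, of which 63 were among the 93 (67.7% of the deposited set and 68.5% of the rescaled set). Of the 30 genes lost, 29 had a range of 1 or more and 4 a lowest value under 100 FPKM after rescaling, and their median slope in the deposited values was -0.22 per 24 h. The 63 that stayed had a median slope of 0.031, and the 29 that entered had a deposited slope of 0.28. When each library was set to the same summed FPKM, 80 genes met the rule, 72 of them from the set. Under all 3 scalings 62 of the 93 genes met it.

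By the largest of its ranges under the 3 scalings, CPIJ000118 came first among the 93 genes, with 103, 116, 135, 126, 135, 117 and 125 FPKM and ranges of 0.38 as deposited, 0.30 by the median ratio and 0.29 at equal sums. CPIJ009739 followed with 113, 114, 150.0, 126, 133, 126 and 129 FPKM and a largest range of 0.40. CPIJ009808 had 688, 739, 951, 790.5, 772, 773 and 824 FPKM and a largest range of 0.47. All of these were lowest at 2 h and were chosen after their values were seen. CPIJ009705, the steadiest in the deposited values, had a largest range of 0.60.

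The highest and lowest values of the set were unevenly spread over the libraries. Of the 93 genes, 16 had their highest value at 2 h, 14 at 12 h, 28 at 24 h, 5, 4 and 6 in the 36, 48 and 60 h libraries, and 20 at 72 h. The lowest value lay in the 2 h library in 25 genes, and in 15, 3, 6, 9, 16 and 19 genes in the libraries from 12 to 72 h. After rescaling, 56 genes were highest at 2 h, 10 at 24 h, and 36 were lowest at 72 h. Division by the ratio raises the 2 h values and lowers the 72 h values by construction. In the deposited values the median gene of the 2761 also stood above its own mean at 24 h, by 0.11 (log2). These counts are not given here for the 2761 genes, so nothing particular to the set is read from them. The first principal component of the genes' deviations held 49.0% of their variance and set the 2, 12 and 24 h libraries against the 36 to 72 h libraries. The second, with 21.0%, set the 24 h and 72 h libraries against those at 2, 36 and 60 h, and the third, with 15.8%, set the first and last libraries against those between them. The genes share the same 7 libraries, so these components include any shift of a whole library.

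**Figure D4:**
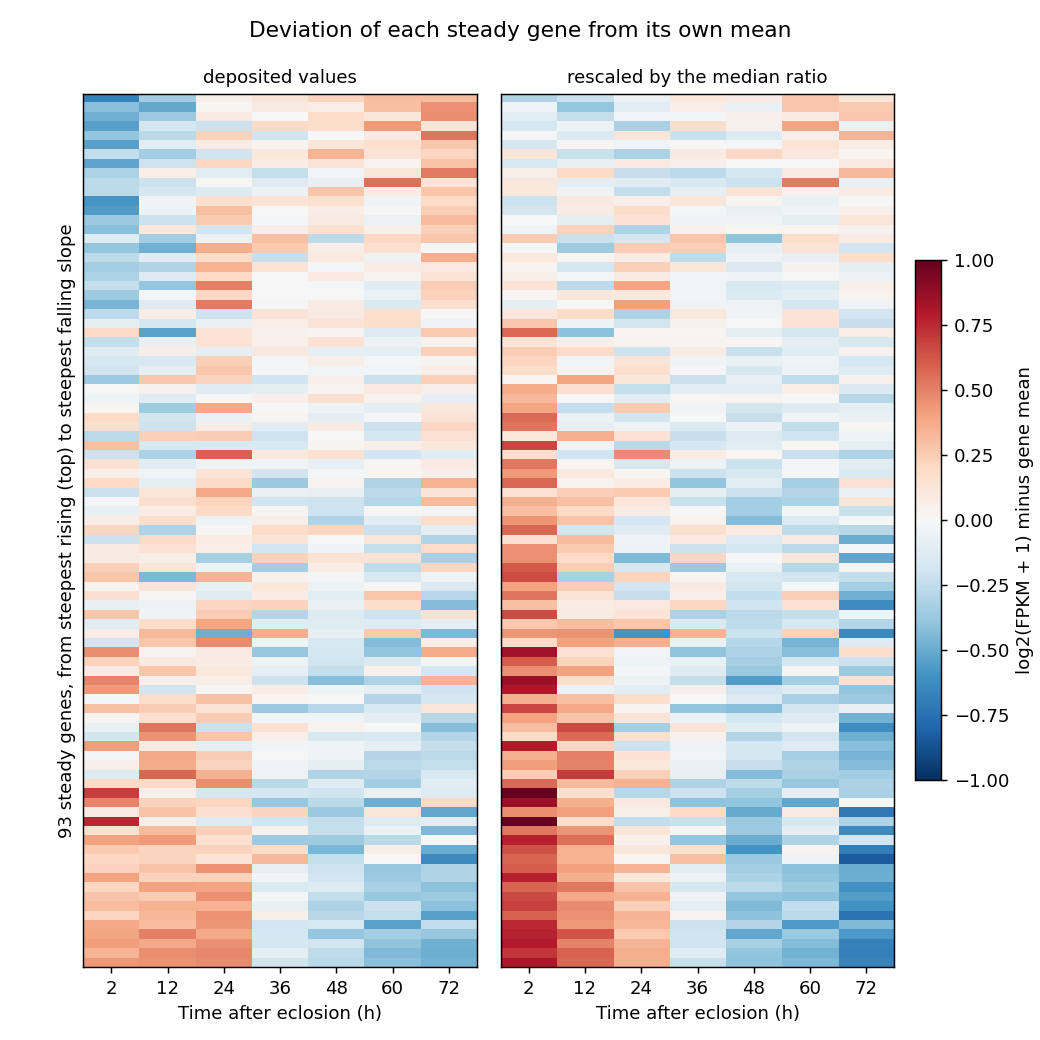
Deviation of log2(FPKM + 1) from each gene's own mean (colour, red above and blue below) for the 93 steady genes (rows, by slope in the deposited values) at each time (columns, h), as deposited (left) and after rescaling by the median ratio (right). On the left the lower rows change from red to blue between 24 and 36 h; on the right 56 of the 93 genes are highest at 2 h.

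Of the 6 shapes counted, which were chosen with the values known, a step down after the first day was the most frequent. In 21 of the 93 genes (22.6%) all values from 36 to 72 h lay below all values from 2 to 24 h, where 12.7% of the 2761 genes with at least 10 FPKM in all libraries did. The mean of the later 4 libraries was lower by 0.24 to 0.79 (log2) in these 21 genes, with a median difference of -0.57. CPIJ000879, 1 of them, had 200.5, 173, 179 and 174 FPKM from 36 to 72 h and 298, 322 and 295 FPKM from 2 to 24 h. CPIJ002897 had the smallest such difference, with 332, 299, 311 and 339 FPKM from 36 to 72 h and 404, 368 and 361 FPKM before. After rescaling 33 of the 93 genes (35.5%) had this shape, where 17.5% of the 2761 did. Division by factors mostly larger in later libraries favours this shape in genes chosen as level. Nothing is therefore read from the larger count after rescaling.

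The opposite step was seen in 6 genes (6.45%), where 18.7% of the 2761 genes had all values from 36 to 72 h above all values from 2 to 24 h. They were CPIJ000574, CPIJ012011, CPIJ014133, CPIJ002102, CPIJ006749 and CPIJ013497, with differences of 0.20 to 0.56 (log2). CPIJ012011 had 269, 265, 315 and 256 FPKM in the later 4 libraries and 161, 208 and 202 FPKM in the first 3. After rescaling 2 of the 93 genes (2.15%) had this shape, where 16.2% of the 2761 did. The same division works against this shape in genes chosen as level. The rule limits the size of such steps, so the shares of the set and of the 2761 genes are not drawn from the same sizes of change.

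A smaller group was high at both ends of the series. In 9 genes (9.68%, where 4.24% of the 2761 genes did so) the 2 h and 72 h values both lay above all values from 12 to 60 h, by 0.16 to 0.58 on average. CPIJ005212 had 364 FPKM at 2 h and ended with 328 FPKM, with 268, 270.3, 222, 192 and 208 FPKM between them. CPIJ019693 had 355 and 333 FPKM at the ends and 195 to 273 FPKM between them. In 3 genes (3.23%, where 2.57% of the 2761 did so), CPIJ004023, CPIJ017732 and CPIJ014559, both ends lay below the rest, by 0.34 to 0.36. After rescaling these counts were 5 (5.38%, where 5.07% of the 2761 genes did so) and 0 (where 2.83% did so). The larger share of the set that was high at both ends was thus seen only in the deposited values.

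Samples 12 h apart alternate between the phases of the light cycle if the pools shared an hour of emergence, which the sources used here do not give. In 11 genes (11.8%) all of the 24, 48 and 72 h values lay above all of the 12, 36 and 60 h values, where 17.6% of the 2761 genes did so, and in 4 genes (4.30%) they lay below, where 2.68% did so. After rescaling the counts turned round, to 2 above (2.15%, against 6.74% of the 2761) and 13 below (14.0%, against 7.64%). The direction held by more genes thus depends on the scale of whole libraries. The largest alternation was in CPIJ005576, with 187, 247 and 192 FPKM at 24, 48 and 72 h and 328, 337 and 314 FPKM at 12, 36 and 60 h. Its 2 h value was 274 FPKM. Over these 6 libraries it was lower at every 24, 48 and 72 h sample, by 0.65 (log2) on average.

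Step by step, few of the 93 genes moved by 1.5-fold, since the rule holds each gene within about 2-fold, and nothing is read from the counts. At 12 h against 2 h, an increase of 1.5-fold or more was seen in 4 genes and a decrease of that size in 5. Among the 664 genes that reached 100 FPKM in either library, 22.0% and 21.5% did so. At 24 h against 12 h the counts were 8 and 2, where the shares were 34.7% and 17.0% of 695 genes, and at 36 h against 24 h they were 1 and 5, where the shares were 7.26% and 22.4% of 675. The later steps had 0 and 2 at 48 h (4.30% and 3.82% of 628 genes), 1 and 0 at 60 h (3.19% and 2.71% of 628) and 5 and 4 at 72 h (5.77% and 7.18% of 641). Between the ends, 72 h against 2 h, the counts were 16 and 18, where the shares were 48.6% and 38.0% of 784. The widest single step was that of CPIJ000766, which had 231 FPKM at 24 h against 122 FPKM at 12 h; its values from 36 h on were 164, 171, 134 and 141 FPKM.

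The rule bounds the range of each gene over all 7 libraries and so also within parts of the series, and nothing is read from the ranges within them. The median range within the first 3 libraries was 0.37 in the set, 0.98 in the other abundant genes and 0.74 in the 2761 genes. Within the last 4 libraries it was 0.33, 0.55 and 0.44. Of the 93 genes, 44 had the narrower range in the later libraries and 49 in the earlier ones. The median SD over all 7 libraries was 0.26 in the set (quartiles 0.20 and 0.32), and 0.25 after the set's own median was subtracted from each library. The rule also keeps the set's own median nearly level in these values.

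Identifiers were not used by the rule, and 16 of the 93 genes (17.2%) had an identifier next to that of another gene of the set. Among the 249 other abundant genes, 23 (9.24%) had an identifier next to that of another gene of that group. The 16 genes form 8 pairs of successive numbers; the files give no positions, so whether the genes of a pair lie side by side in the genome was not analysed here. The SD over the 7 libraries of the log2 ratio between the genes of a pair had a median of 0.12 in the 8 pairs and of 0.33 in the 4270 remaining pairs of the set (quartiles 0.26 and 0.42). For the other abundant genes these medians were 0.20 in 12 pairs and 0.87 in 30864. The pairs were examined after their values were seen.

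In 4 of the 8 pairs the courses ran closely in parallel. CPIJ003259 and CPIJ003260 were both highest at 2 h: CPIJ003260 had 472 FPKM at 2 h and 303, 260, 258, 255, 279 and 267 FPKM afterwards, and the SD of the log2 ratio was 0.045. CPIJ010022, the second steadiest gene, ran with CPIJ010023, which had 364, 280, 303, 324, 297, 320 and 349 FPKM (SD 0.050). CPIJ013497 had 141, 134, 144, 158, 165, 170 and 147 FPKM and CPIJ013498 had 116, 110, 119, 123, 134, 122 and 113 FPKM (SD 0.073). CPIJ009655 had 442, 450, 373, 259, 260, 277 and 334 FPKM and CPIJ009656 had 619, 601, 555, 390, 413, 454 and 549 FPKM (SD 0.11). Both genes of the last pair were high up to 24 h, lowest at 36 h and higher again at 72 h.

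The other 4 pairs had larger SDs. The SD was 0.13 for CPIJ004808 and CPIJ004809 and 0.17 for CPIJ019692 and CPIJ019693. Only 2.08% and 6.75% of the remaining pairs of the set had an SD as low or lower. For CPIJ004069 and CPIJ004070 the SD was 0.29, where 34.3% did. CPIJ011268 and CPIJ011269 ran apart, with an SD of 0.53: CPIJ011268 had 207, 258, 344, 314, 326, 305 and 363 FPKM, while CPIJ011269 had 250, 245, 282, 203, 172, 157 and 159 FPKM. The sources used here do not say how fragments shared by similar genes were counted, and the part of such sharing in the parallel courses was not tested.

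**Figure D5:**
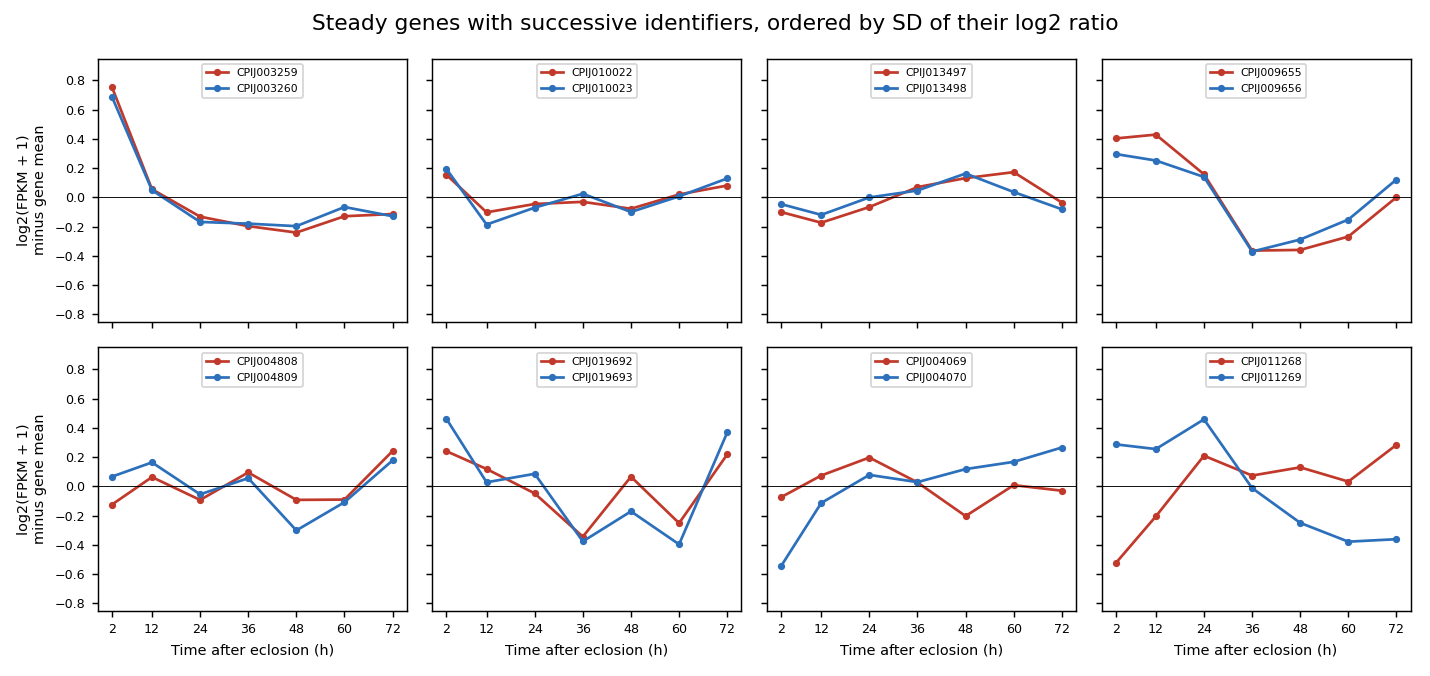
Deviation of log2(FPKM + 1) from each gene's own mean (vertical) against time after eclosion (horizontal, h) for the 8 pairs of steady genes with successive identifiers, the lower number in red and the higher in blue, 1 library per time. The pairs run from the smallest SD of the log2 ratio (0.045, top left) to the largest (0.53, bottom right), where the lines cross.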

How the data were processed

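Whole females were sequenced at 7 times, 1 library of 200 pooled animals each, with read pairs of 51 nucleotides, per the labels' protocols. The authors deposited 1 FPKM value per gene and library; the file header names only gene and hour, so this unit was inferred from the values and from the TopHat, Cufflinks and Cuffdiff pipeline in the series' design text. The submitters' processing notes also name CASAVA 1.8 and Trimmomatic. Nothing in the sources used here gives the genome build, gene models, strandedness or any scaling between libraries.

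The set was found by its rule with pandas 2.3.3 and numpy 2.4.6 in Python 3.11.15. Computations used log2(FPKM + 1), which understates changes of low genes. Slopes are least-squares. Rescaling divided each library by its median ratio to the geometric mean over genes with at least 10 FPKM in all libraries. Relative depth is the inverse of the commonest ratio between 2 libraries among values under 0.3 FPKM; 14.6% to 21.3% of genes lay within 0.02 (log2) of it. The rule, slopes and scaling were run on simulated data in which few genes changed, as many rising as falling. A larger share of the abundant genes differed by 1.5-fold or more between 2 and 72 h here. That run therefore does not test whether the scaling holds for these libraries. With 1 library per time and genes chosen from these values, no test was run and no counting interval could be computed. The set, shapes and genes given were chosen with earlier results of these data known; genes were given by identifier for highest mean, smallest range, steepest slopes and nearness to the limits, and the rest after their values were seen. The lists planned by words in gene names could not be built, since no identifier has a name here. The alternatives were a pseudocount of 0.1, both rescalings, minimum values of 50 and 200 FPKM, range limits of 0.8 and 1.2, and each library left out in turn.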

Additional observations from a re-analysis of the deposited data

How the results depend on the processing

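No paired analysis was possible because the times share no numbered replicates. The 93 genes became 92 with a pseudocount of 0.1, 92 and 80 after the rescalings and 132 with a range limit of 1.2. The count was 192 with a minimum of 50 FPKM, 31 with 200 FPKM and 58 with a range limit of 0.8, because these settings admit more or fewer genes by construction. It lay between 94 and 163 with 1 library left out, highest without the 2 h library. Leaving out a library can only keep or add genes. The median share of the summed FPKM, 6.52%, was 7.48% after rescaling by the median ratio, 5.72% at equal sums, 8.50% and 3.94% with minimum values of 50 and 200 FPKM, 3.46% and 10.8% with range limits of 0.8 and 1.2, and 6.42% to 11.3% with 1 library left out. The 44 genes above their 2 h value at 72 h became 98 and 16 with minimum values of 50 and 200 FPKM and 29 with a range limit of 0.8. The 16 genes with an increase of 1.5-fold or more by 72 h became 10 in the sets chosen again after either rescaling. The count was 31 and 7 with minimum values of 50 and 200 FPKM and 6 with a range limit of 0.8. Among the 93 genes themselves, the largest rise from 2 to 72 h after rescaling by the median ratio was 0.42 (log2), less than 1.5-fold. Median slopes of the sets chosen again ran from -0.095 per 24 h, with 72 h left out, to 0.021, with 2 h left out. Each setting again admits only nearly level genes, which favours medians near 0 by construction, so nothing is read from them. When the 93 genes were kept and rescaled by the median ratio, their median slope was -0.18. That lay below the lower quartile of their deposited slopes, -0.16. Depth limits low values most. By the steps of low values the 60 h library was the shallowest, if no scaling between libraries was applied. The counting error of the set's values is unknown.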
